A study of Mus musculus with 195 samples.

Results

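Polyadenylated RNA ends that fell outside the known genes, called intergenic sites here, were counted in single mouse embryonic stem cells and neural stem cells. A site was a genome position at which RNA molecules ended in a poly(A) tail, and it belonged to this class if the authors' table listed it as intergenic. Positions in a gene or up to 20 kb downstream had been assigned to that gene, and ends antisense to genes had classes of their own. The intergenic class nevertheless held ends opposite known genes, as described below. Of 94358 sites on the mouse genome, 24726 were intergenic, and they held 42749 molecules.

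The RNA came from the 46C line, embryonic stem cells that carry a green fluorescent reporter at Sox1, and from neural stem cells made from it. ESC-2i cells grew without serum in 1 µM PD0325901, 3 µM CHIR99021 and 10 ng/ml LIF, ESC-FCS cells in 10% fetal serum and 10 ng/ml LIF, and NSC as an adherent neural culture. From each of the 3 populations, 48 small cells in G0 or G1 were sorted into 2 library batches of single cells. A further 48 ESC-FCS cells (control cells), 1 pool of 48 ESC-FCS cells and 2 pools of 48 ESC-2i cells were sequenced apart. Rates below use the 33 ESC-2i, 33 ESC-FCS and 41 NSC cells that had at least 1000 molecules on genes and a column in the gene table. The kept cells held 386518, 241538 and 162588 molecules on the mouse genome, so the NSC rates are the least precise. Each population was 1 culture, so no test between populations was possible. Intervals are exact 95% intervals and cover counting error only, and the values of the 2 library batches are given as the spread between libraries of 1 culture. Summed over gene lists, the populations carried their own markers. Sums for 10 embryonic stem cell genes (Nanog, Zfp42, Esrrb and others) were 40.7, 20.9 and 0.123 molecules per 10000 in the order ESC-2i, ESC-FCS, NSC. For 10 neural stem cell genes (Nes, Olig1, Fabp7 and others) they were 1.84, 1.53 and 52.2. Fabp7 alone gave 23.1 of the 52.2. Pax6, also on the neural list, went the other way, with 4 molecules in ESC-FCS and 0 in both other populations.

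A messenger RNA ends where the nascent transcript is cleaved and a poly(A) tail is added, usually a short stretch downstream of the hexamer AATAAA or ATTAAA. RNA that ends in this way away from genes can come from transcripts missing in the annotation, from run-on past a gene end, or from copies of messenger RNAs that were inserted into the genome as processed pseudogenes. An oligo(dT) primer can also start inside an RNA at a run of A. These are general facts about such libraries, and which of them applies to a given site was not tested.

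The table gave an intergenic site's position and its distance to the closest known transcript end, but neither its chromosome nor its strand. For 20689 sites with such a distance, the chromosome and strand were sought at which an annotated transcript end lies exactly that far from the position, with a tolerance of 3 nt. This placed 16750 sites, 81.0%, on 1 chromosome and strand of GRCm38. With the strands exchanged only 150 sites, 0.725%, found a match, which gives the level of accidental matching. A further 3854 sites had no known end within 200 kb and 3851 matched no end of GENCODE M21, so these sites are given by position only.

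Some sequences at the sites that carry the results are shown first. They were read from the GENCODE M21 transcripts on GRCm38, 5′ to 3′ on the strand of the RNA. The table names no chromosome for the first 4, and they are shown as chrM, on the strand of the ribosomal RNA genes, because each of these positions was also listed under a mitochondrial gene. The capitals are the 18 bases that follow the site.

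Position 723, chrM:712-741, + strand, mt-Rnr1: tattaaagtaagCAAAAGAATCAAACATAA
Position 1890, chrM:1879-1908, + strand, mt-Rnr2: ctaaaggaaagaTCCAAAAAGATAAAAGGA
Position 1450, chrM:1439-1468, + strand, mt-Rnr2: gatagctggttaCCCAAAAAATGAATTTAA
Position 1484, chrM:1473-1502, + strand, mt-Rnr2: aattttaaacttGCTAAAAAAACAACAAAA

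In the 20 bases after these positions 14, 12, 10 and 13 were A. These 4 are not typical of the span, since at least 12 A followed 4 of 28 positions with at least 10 molecules (14.3%) and 6 of all 173 (3.47%). Of 499 other intergenic sites in exons, with any number of molecules, 128 (25.7%, 21.9 to 29.7%) were followed by at least 12 A. At 10 or more molecules it was 2 of 9 (22.2%, 2.81 to 60.0%). Among sites within 10 nt of known gene ends it was 4.27% of 1240. It was 9.95% of 1005 sites a little farther from such ends and 5.63% of 1385 sites inside terminal exons. These shares cover only sites whose annotated transcript ran on for 20 bases, which leaves out most sites at annotated ends. The authors had already dropped reads whose end was followed by A-rich genome sequence. Before position 723, and at none of the other 3, the hexamer ATTAAA stood 11 bases upstream. The next 5 lie in exons of genes on nuclear chromosomes, and the capitals are the hexamer AATAAA where the 40 bases before the site held it.

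AC165962.4, chr17:30603685-30603714, + strand: gtgcacaagcAATAAAatcactttgaatgg
Ndufb1-ps, chr12:101968101-101968130, − strand: gagaAATAAAaacatttactatttaattag
1700097N02Rik, chr17:30622446-30622475, − strand: tgctaAATAAActgcttccatgctgtctct
Gm43841, chr5:7276847-7276876, + strand: aagacaaaatactaaaattatatccatgtc
Gm43743, chr3:94334574-94334603, − strand: gcagtagcattaattcaagcctatgtattt

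The hexamer began 14, 25 and 19 bases before the end of the RNA in AC165962.4, Ndufb1-ps and 1700097N02Rik. In the 20 bases after the sites in AC165962.4, Gm43841 and Gm43743, 13, 7 and 6 were A. The transcripts of Ndufb1-ps and 1700097N02Rik ended before 20 bases. Neither AATAAA nor ATTAAA stood in the 40 bases before the sites in Gm43841 and Gm43743. Of all 31 placed intergenic sites with at least 10 molecules in an annotated exon, 21 (67.7%, 48.6 to 83.3%) had one of the 2 hexamers in the 40 bases upstream. The same share was 87.5% of 4943 sites within 10 nt of known gene ends and 71.7% of 1407 sites inside terminal exons. Among all 651 intergenic sites in exons, most of them with 1 molecule, it was 28.9% (25.4 to 32.5%). In the mitochondrial span 5 of 28 sites with at least 10 molecules had a hexamer.

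Intergenic sites were many and thinly used. Of the 24726 sites, 20899 (84.5%) had 1 molecule in all cells, against 64.6% of the sites of any class. Only 296 sites reached 10 molecules, 43 reached 50 and 13 reached 100. The 13 most used sites held 11.2% of all intergenic molecules and the sites with 1 molecule held 48.9%. A site with many molecules was seldom the product of 1 cell: of the 296 sites with at least 10 molecules, 8 had most of them in 1 cell.

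Intergenic ends made up 4.46% of the genome molecules in ESC-2i (4.40 to 4.53%), 5.74% in ESC-FCS (5.65 to 5.83%) and 6.21% in NSC (6.09 to 6.33%). By library batch the shares were 4.70 and 4.25% in ESC-2i, 5.47 and 6.10% in ESC-FCS, and 6.94 and 5.39% in NSC. Both ESC-2i batches therefore lay below all the others, whereas the ESC-FCS and NSC batches overlapped. Per cell the share ran from 3.43 through a median of 4.33 to 7.83% in ESC-2i, from 3.95 through 5.42 to 13.6% in ESC-FCS, and from 3.68 through 5.94 to 17.6% in NSC, so the cells of the 3 populations overlapped widely. The cells also differed in depth, with a median of 11597, 6935 and 3556 genome molecules. Across the cells of a population, share and depth had a Spearman rho of -0.30, -0.32 and -0.20 (n = 33, 33 and 41 cells that share libraries). In reads, where an intergenic molecule had on average 5.76 copies and a molecule on a gene 12.3, the shares were 2.34, 2.78 and 2.73%. The part of depth in the difference was not tested.

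**Figure D1:**
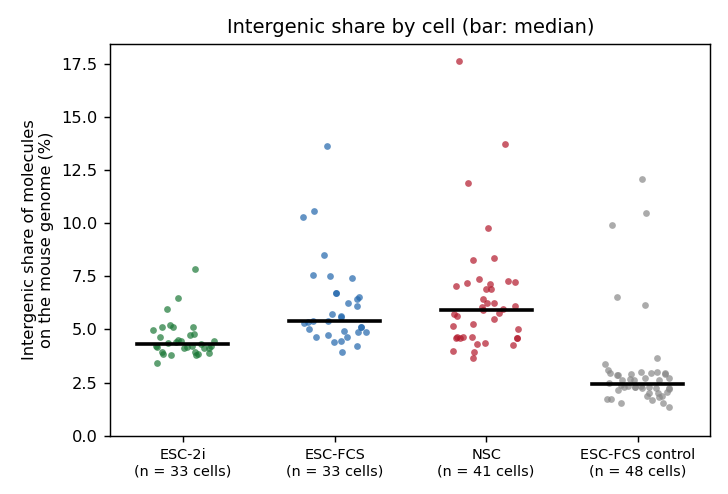
Intergenic share of the molecules on the mouse genome (vertical axis, %) in each kept ESC-2i, ESC-FCS and NSC cell and in all 48 control cells, 1 point per cell, with the median as a bar. ESC-2i cells have a median of 4.33% and the control cells of 2.43%, with single cells of every group but ESC-2i above 10%.

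Sites were also grouped by position or annotation, without regard to their counts, so that the choice of sites did not depend on depth. Their rates may still depend on depth, as the shares above may, and this was not tested. Positions in the mitochondrial span had 23.4, 51.2 and 74.4 molecules per 10000 in the order ESC-2i, ESC-FCS, NSC, with batches of 28.2 and 19.2, 63.0 and 35.5, and 102 and 43.7. Sites with no known transcript end within 200 kb had 56.6, 83.9 and 93.5, with batches of 60.7 and 52.8, 73.7 and 97.6, and 100.1 and 86.0. In both groups the ESC-2i batches lay below all the others.

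A group of 183 sites, taken here to be mitochondrial, had positions between 334 and 16121, and the next intergenic position was 1049128. The mitochondrial genes of the annotation end at 15422. At 51 of these 183 positions the table also listed molecules under a gene, and in all 51 the gene was mitochondrial. These sites held 3435 molecules, 8.04% of the intergenic total. The authors state that they left mitochondrial and ribosomal RNA reads out of their further analyses. Their reason is that such RNAs gain A tails during degradation, apart from alternative polyadenylation. The deposited counts still held these positions. The mitochondrial ribosomal RNAs are the RNA core of the ribosome that makes the proteins of the respiratory chain, and in mammals they carry short A tails. Of the 3435 molecules, 1322 (38.5%) lay in the span of mt-Rnr1 (12S rRNA, chrM:70-1024) and 1725 (50.2%) in that of mt-Rnr2 (16S rRNA, chrM:1094-2675).

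The most used intergenic site of all was position 723 in mt-Rnr1, with 1039 molecules. It had 4.94 molecules per 10000 in ESC-2i, 15.3 for ESC-FCS and 27.8 for NSC. Single cells held 0 to 23 (median 4), 1 to 54 (median 6) and 0 to 38 (median 7) molecules, so cells of all populations overlapped. The batches gave 6.70 and 3.35 in ESC-2i, 19.2 and 10.2 in ESC-FCS, and 36.6 and 17.9 in NSC, so batch 1 lay above batch 2 in each population, and ESC-2i lay below the others in both. NSC had 5.63 times the ESC-2i rate (4.74 to 6.70). At the same position, 128 further molecules were credited to mt-Tf, the phenylalanine transfer RNA gene that precedes mt-Rnr1.

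Positions 1890 and 1450 in mt-Rnr2 followed with 690 and 528 molecules. Position 1890 had 4.68, 7.82 and 18.7 molecules per 10000 in ESC-2i, ESC-FCS and NSC. Position 1450 had its top in ESC-FCS, with 2.82, 12.1 and 7.01. In the pooled rates, the order of the populations thus differed between 2 sites of 1 ribosomal RNA. Batch 1 exceeded batch 2 here too, at position 1450 by 16.5 against 6.20 in ESC-FCS and 10.5 against 3.14 in NSC. The ESC-FCS and NSC batches therefore overlapped at position 1450. The ESC-FCS control cells had 2.51 per 10000 there, so the top in ESC-FCS did not return in them.

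Which genes lay beside the placed sites was read from GENCODE M21, a later annotation than that behind the table. Of 167 placed sites with at least 10 molecules, 104 (62.3%, 54.5 to 69.6%) lay within 100 kb downstream of a same-strand gene end, 42 (25.1%) inside a same-strand gene, 9 inside an opposite-strand gene and within 100 kb of no same-strand gene end, 3 within 5 kb upstream of an opposite-strand gene start, and 9 elsewhere. Whatever lay on their own strand, 55 of the 167 (32.9%, 25.9 to 40.6%) and 6227 of all 16750 placed sites (37.2%) were inside an opposite-strand gene, among them Myo7a, Glo1, Zmynd8 and Ttbk2, which had molecules of their own in the same table. Of the 167 sites, 34 (20.4%, 14.5 to 27.3%) were within 25 nt of a transcript end of the later annotation on the same strand. Among all 16750 placed sites that share was 1.95%. Of the 42 sites inside a gene, 19 were in protein-coding genes, 13 in noncoding RNA genes and 10 in pseudogenes. Where same-strand genes overlapped, the shortest gene that held the site was counted.

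Pseudogenes were the most frequent close neighbour. Of the 167 sites, 53 (31.7%, 24.8 to 39.4%) lay inside a same-strand pseudogene or within 1 kb downstream of its end, against 4.01% of all placed sites. The 43 that lay downstream were 1 to 551 nt from the annotated end, with a median of 49 nt, and 34 were within 100 nt. Of the 49 sites up to 1 kb downstream of any gene end, 43 followed a pseudogene and 1 a protein-coding gene. The class rule shapes these counts, since ends up to 20 kb downstream of a gene known to the authors were credited to that gene. They therefore do not show that such ends prefer pseudogenes.

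**Figure D2:**
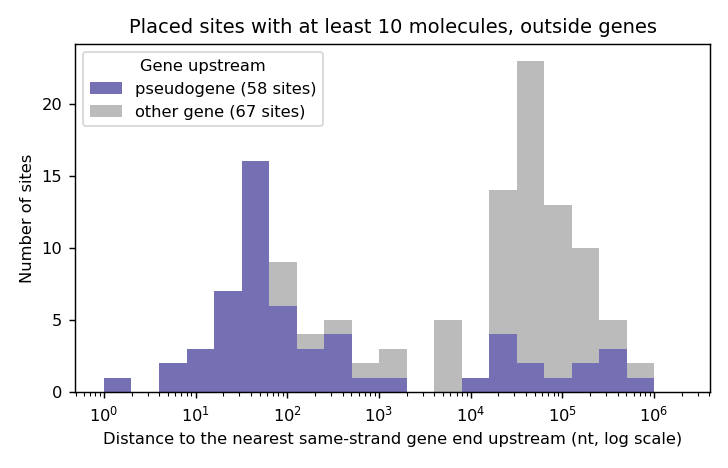
Distance (nt, log scale) from 125 placed sites with at least 10 molecules outside genes to the nearest same-strand gene end upstream, split by whether that gene is a pseudogene (58 sites) or not (67 sites). The pseudogene group has a median of 68.5 nt and the other group of 47684 nt. Ends up to 20 kb downstream of a gene known to the authors were credited to that gene, which shapes both distributions.

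The transcripts of these pseudogenes were aligned to all protein-coding transcripts to name the closest gene. Leaving out chromosome 18, all 50 sites (45 pseudogenes) had a hit, with an identity of 75.4 to 100% and a median of 95.4%. For 34 of the 50 the closest gene was a ribosomal protein gene, a group with short and abundant messenger RNAs. For 2 of these, both past Rps12-ps4, it was Rps12-ps3, itself a copy that the annotation lists as protein-coding. A molecule of such a gene and of its copy share most of their sequence, so the split of reads between both is uncertain. Reads that did not align uniquely had been discarded by the authors.

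Gm15013 (chrX:139713681-139714481, − strand) is annotated as protein-coding but was 96.5% identical over 804 aligned bases to Rps4x, which encodes a protein of the small ribosomal subunit. The site at chrX:139713611, 70 nt past its end, had 2.02 (1.60 to 2.52), 2.32 (1.75 to 3.01) and 2.15 (1.50 to 2.99) molecules per 10000 in ESC-2i, ESC-FCS and NSC. These 3 rates differed by less than their counting error. Rps4x itself had 3560 molecules in the kept cells, and no molecule was credited to Gm15013.

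Gm7285 is a processed copy of Rps7 (96.6% identity), another small-subunit protein. Its site 32 nt past the end had 45 molecules in ESC-2i, 32 with serum and 15 in NSC, beside 48, 21 and 17 on Rps7. The counts on the copy were thus as large as those on the gene. Other copies of Rps7, Gm42845 and Gm5055, had sites with 28 and 18 molecules in all cells. In the kept cells 46 of the 50 sites had fewer molecules than the closest gene, 3 had more, and 1 had as many. The 3 with more were the site past Gm7285 and those past Rps12-ps4, whose closest gene, the copy Rps12-ps3, had 1 molecule. Zfp42-ps1 is a copy of Zfp42, a marker of naive embryonic stem cells also known as Rex1, and aligned to it over 54.3% of its length. Its site, 551 nt past the annotated end, had 9, 3 and 0 molecules in the order ESC-2i, ESC-FCS, NSC, and Zfp42 had 61, 26 and 0.

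The most used site on a nuclear chromosome was chr7:98093229 on the + strand, 43.6 kb past the end of Gdpd4 (a glycerophosphodiester phosphodiesterase family gene) and inside Myo7a (chr7:98051060-98119524), which encodes an unconventional myosin and lies on the other strand. Its rate per 10000 was 8.98 in ESC-2i, 14.5 with serum and 1.60 in NSC. Every ESC-2i cell and 32 of 33 ESC-FCS cells had it, with medians of 9 and 11 molecules per cell, against 18 of 41 NSC cells, where no cell had more than 4. The batches gave 7.57 and 10.2 in ESC-2i, 15.8 and 12.7 in ESC-FCS and 1.39 and 1.83 in NSC, with no overlap between populations. NSC was 5.61-fold lower than ESC-2i (3.77 to 8.72). Of the neighbours, Gdpd4 had no molecule in any population, and Myo7a had 9, 3 and 0.

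Among the other most used sites, chr1:189981816 (− strand) lay 136219 nt past the end of Prox1, a homeobox transcription factor gene, and 59453 nt before Smyd2, a lysine methyltransferase gene. It had 4.24, 2.48 and 5.17 molecules per 10000 in ESC-2i, ESC-FCS and NSC. Prox1 had 1, 0 and 1 molecules there, so the site was not accompanied by the nearest gene upstream.

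The site at chr11:8004561 (− strand), 381 nt past Gm24051, a small nucleolar RNA gene (chr11:8004942-8005016), had 4.40, 2.03 and 1.85 molecules per 10000. The same position was also listed under Gm24051 as a downstream end, with 267, 64 and 35 molecules, which is 6.91, 2.65 and 2.15 per 10000. No single cell had more than 12 molecules of the intergenic portion in ESC-2i, 7 with serum and 4 in NSC. Molecules of 1 end were thus split between the gene and the intergenic class, and both portions were highest in ESC-2i. In ESC-2i it was 5.99 in batch 1 and 2.96 in batch 2, and the other batches lay between 1.39 and 2.35.

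Small genes shared a position with an intergenic site in a few further cases. Of all placed sites, 91 had a position that was also listed under a gene, 81 of them on the chromosome of that gene, and 3 of these had at least 10 molecules. Beside the site at Gm24051 these were chr3:90127115 at Gm23723, with 23 intergenic and 45 gene molecules, and chr11:106501210 at Snord104, with 21 and 19. Snord104 is a small nucleolar RNA gene.

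The site at chrY:90739255 (+ strand), 13802 nt before Mid1-ps1, had 1.40, 1.16 and 3.20 molecules per 10000, with batches of 3.02 and 3.40 in NSC and none above 1.43 in the others. The site in Ndufb1-ps, a noncoding RNA that shares its start region with Cpsf2, a gene of the cleavage and polyadenylation complex, had 1.29, 0.869 and 1.66. The site in AC165962.4, inside the opposite-strand gene Glo1, had 1.19, 1.08 and 1.91. AC165962.4 is annotated as a processed pseudogene, and 24.5% of its transcript aligned to Rps13. For the sites in Ndufb1-ps and AC165962.4 the intervals of all 3 populations overlapped. Some of the most used sites could not be placed. Position 123205265 had 3.85, 4.89 and 7.07 molecules per 10000, with the highest batch in NSC. Position 54258619 had 2.35, 2.19 and 2.71, position 143093265 had 1.40, 1.61 and 1.29, and position 16719068 had 1.32, 1.41 and 0.554.

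**Figure D3:**
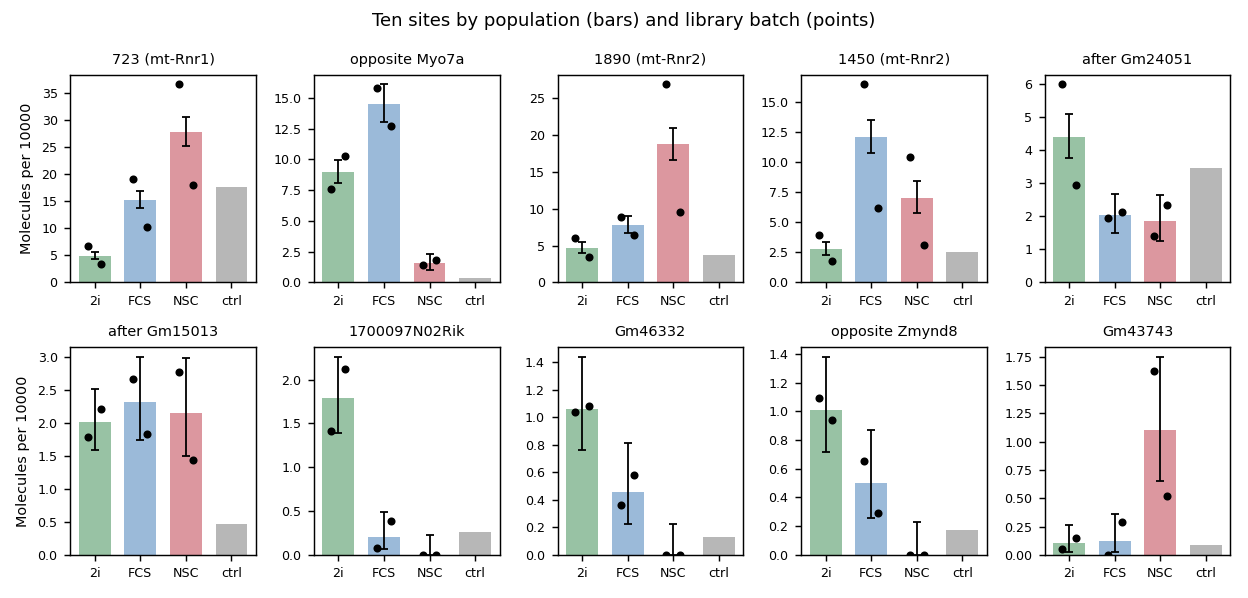
Molecules per 10000 genome molecules (vertical axes, each from 0) at 10 intergenic sites in ESC-2i (2i), ESC-FCS (FCS), NSC and the control cells (ctrl), with exact 95% Poisson intervals on the population bars and the 2 library batches as points. The site opposite Myo7a falls from 14.5 in ESC-FCS to 1.60 in NSC and is at 0.389 in the control cells, whereas position 723 rises to 27.8 in NSC.

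NSC were compared with ESC-2i to ask which intergenic ends follow the passage from pluripotent to neural cells. At 20 or more molecules in both populations together, 76 of the 24726 sites could be compared. Of these, 6 were at least 4-fold higher in NSC (7.89%) and 6 at least 4-fold lower (7.89%). Among 4074 sites of all classes the shares were 6.28% higher and 11.9% lower, so neither count stood far from the background. The median log2 ratio was 0.12 over the intergenic sites and -0.17 over all sites. Of the 6 higher sites, 4 were mitochondrial positions, which leaves 2 of 66 without them. These were positions 521 and 723 in mt-Rnr1 and 1484 and 2015 in mt-Rnr2, at 6.62, 5.63, 5.77 and 4.41 times the ESC-2i rate. Position 521 rested on 1 NSC batch, with 4.06 per 10000 in batch 1 and 0.523 in batch 2, beside 0.599 and 0.148 in ESC-2i. The other 5 of the 6 sites were higher in all 4 pairs of batches. Position 2015 had 7, 4 and 13 molecules (ratio interval 1.64 to 13.1).

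The 2 higher sites on nuclear chromosomes were both in pseudogenes. The site at chr3:94334580 in Gm43743 (chr3:94334394-94335332, − strand), between Them4 and Them5, had 4 and 3 molecules in both stem cell cultures and 18 in NSC, in 11 cells with at most 3 each, which is 10.7 times the ESC-2i rate in NSC (3.52 to 43.5). The NSC batches were 1.63 and 0.523 per 10000 and no batch of the other populations passed 0.291. The closest protein-coding gene, Aasdhppt (80.3% identity over 43.6% of the transcript), had 31, 24 and 7 molecules, so it did not share the direction.

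The site at chr5:7276870 in Gm43841, inside the opposite-strand gene Zfp804b, had 7, 6 and 20 molecules and 6.79 times the ESC-2i rate in NSC (2.76 to 19.0). The closest coding transcript to Gm43841 was the mitochondrial mt-Cytb (83.5% identity), which encodes cytochrome b of the respiratory chain. It had 1476, 1013 and 2169 molecules, and its rate, 133 per 10000 in NSC, was highest there as well.

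All 6 sites called lower were on nuclear chromosomes, and all 6 were lower in the 4 pairs of batches. Beside the site opposite Myo7a these included chr17:30622452 (− strand), 11 bases inside the annotated 3′ end of the noncoding RNA 1700097N02Rik (chr17:30622441-30626905), the sequence shown above. It had 69 molecules in 24 ESC-2i cells (at most 7 in 1 cell), 5 in 2 ESC-FCS cells and none in NSC. With NSC set at 3 molecules over the group, NSC was 9.67-fold lower than ESC-2i, and the exact interval began at 7.66-fold. Dnah8, which encodes a heavy chain of the axonemal dynein motor, starts 1902 nt away on the other strand, and it had 66, 9 and 0 molecules. The end of the noncoding RNA and its divergent neighbour had the same order of populations. The site also lay inside the protein-coding gene Glo1 (chr17:30584936-30626871) on its own strand. Glo1 had 3.29, 4.97 and 3.38 molecules per 10000 in ESC-2i, ESC-FCS and NSC, so it did not share that order.

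The site at chr12:4552549 (− strand) lay 3 bases inside the end of the long noncoding RNA Gm46332 (chr12:4552546-4569538) and had 41, 11 and 0 molecules. With NSC set at 3 molecules it was 5.75-fold lower in NSC (interval from 4.47-fold). The site at chr2:165822882 (+ strand) lay opposite Zmynd8, a chromatin reader gene, and had 39, 12 and 0. On the same setting it was 5.47-fold lower in NSC (interval from 4.24-fold). Zmynd8 had 47, 28 and 10 molecules on its own strand. The site at chr2:120801679 (+ strand) lay opposite Ttbk2, a tau tubulin kinase gene, with 31, 12 and 1 molecules and an NSC ratio of 0.0767 (0.00188 to 0.460), while Ttbk2 had 5, 1 and 6. The last of the 6, chr6:67417665 (− strand), was 50 nt past Gm44083, a copy of Rpl30, with 21, 2 and 2 molecules and a 4.42-fold lower NSC rate (1.08 to 38.9). ESC-FCS rates lay between ESC-2i and NSC at the sites in 1700097N02Rik and Gm46332 and opposite Zmynd8 and Ttbk2.

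**Figure D4:**
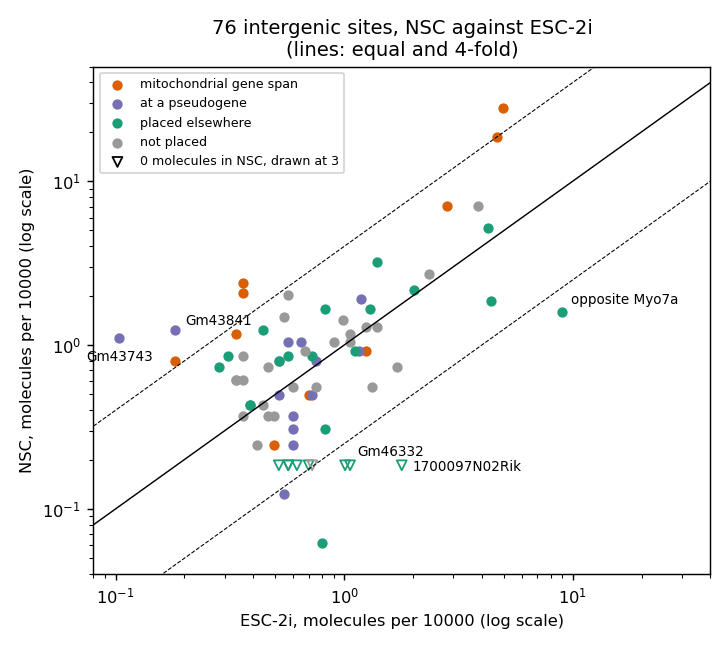
Molecules per 10000 genome molecules of the 76 intergenic sites with at least 20 molecules, in ESC-2i (horizontal) and NSC (vertical), both on log scales, coloured by kind of site, with lines at equal rates and at 4-fold. Mitochondrial positions lie mostly above the line of equal rates, and 9 sites without an NSC molecule are drawn at 3 molecules.

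ESC-FCS were compared with ESC-2i to ask what the culture medium changes. Of 92 sites with 20 molecules, 3 were at least 4-fold higher in ESC-FCS (3.26%) and 6 lower (6.52%), beside 1.63% and 4.19% of 4467 sites of all classes. The median log2 ratio was -0.07 over the intergenic sites and -0.07 over all sites. The 3 higher sites, positions 521, 1450 and 1484, were all in the mitochondrial ribosomal RNA genes, and none of the other 81 sites was 4-fold higher. Scaling by the spike-in RNAs in place of genome molecules raised every log2 ratio by 1.07 and turned the split to 12 higher and 3 lower, while 10.1% of all sites were then higher and 1.07% lower.

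Of the 6 lower sites, 4 were lower in all pairs of batches, and these are described here. The site in 1700097N02Rik had 0.207 molecules per 10000 in ESC-FCS against 1.79 in ESC-2i, an 8.62-fold lower rate (3.52 to 27.4). The site past Gm44083 was 6.56-fold lower (1.60 to 57.7). The site at chr3:110099681 (− strand), inside Ntng1, which encodes the axon guidance protein netrin G1, had 20, 1 and 13 molecules in the order ESC-2i, ESC-FCS, NSC, and Ntng1 itself had 2, 0 and 1. The site at chr3:9612010 (+ strand), 1925 nt upstream of the divergent start of Zfp704, a zinc finger gene, had 19, 1 and 0, and Zfp704 had 17, 13 and 12. At these last 2 sites the ESC-FCS ratio was 0.0800 (0.00193 to 0.500) and 0.0842 (0.00203 to 0.530). Just short of 4-fold, position 91996010, not placed, had 48, 8 and 21 molecules and a 3.75-fold lower ESC-FCS rate (1.76 to 9.18).

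Among the sites with intervals apart and 1 direction in all batch pairs that did not reach 4-fold, positions 369 and 2218 in the mitochondrial ribosomal RNA genes were 3.91 and 3.32 times higher in ESC-FCS than in ESC-2i.

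The control cells were used to see which sites return in ESC-FCS libraries made apart. Of 78 sites with at least 10 molecules in ESC-FCS, 64 (82.1%, 71.7 to 89.8%) had a molecule within 12 nt in the control cells and 37 (47.4%, 36.0 to 59.1%) in the pooled ESC-FCS library. Of all 9234 ESC-FCS sites, 6.29% and 2.77% were found again. Of 134 ESC-2i sites with at least 10 molecules, 38 (28.4%, 20.9 to 36.8%) returned in the ESC-2i pools. The more molecules a site had, the more often it was found again.

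**Figure D5:**
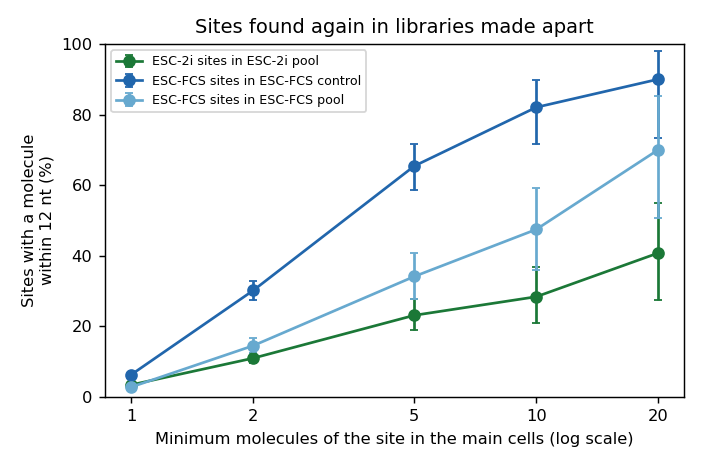
Share of sites (vertical axis, %) with a molecule within 12 nt in libraries made apart, by the minimum number of molecules of the site in the main cells (horizontal axis, log scale), with exact 95% binomial intervals. For ESC-FCS sites in the control cells it rises from 6.29% at 1 molecule to 90.0% at 20.

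Levels were compared next, with all 48 control cells summed. Over 51 intergenic sites with 20 molecules, 1 was at least 4-fold higher in the control cells than in ESC-FCS (1.96%, background 5.22%) and 8 at least 4-fold lower (15.7%, background 3.54% of 3642 sites). The site opposite Myo7a had 9 molecules in the control cells, 0.389 per 10000 against 14.5 in ESC-FCS, a 37.2-fold lower rate (19.4 to 82.1). This is larger than any difference between the populations at that site. The site past Gm15013 was 4.88-fold lower in the control cells (2.53 to 10.3), position 123205265 was 7.06-fold lower (4.17 to 12.8) and position 1450 was 4.82-fold lower (3.63 to 6.51). Position 1484 had no molecule in the control cells and 35 in ESC-FCS, 11.2-fold lower with the control cells set at 3 molecules (interval from 8.62-fold). Over all 51 sites the median log2 ratio was -0.23, and over all sites 0.22. By contrast, position 723 had 17.6 per 10000 in the control cells and 15.3 in ESC-FCS, and the site in 1700097N02Rik had 0.259 and 0.207. Position 91996010, low in ESC-FCS, was 3.78 times higher in the control cells (1.69 to 9.58), close to its ESC-2i rate.

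The intergenic share was 2.41% in the control cells (2.35 to 2.47%), 0.757% for the pooled ESC-FCS cells and 0.329% for both ESC-2i pools together. The ESC-2i pools had 1609 and 1608 intergenic molecules out of 481792 and 496999, and the most abundant gene there had 1602 and 1527. Molecular barcodes were merged within 1 identifier, and all intergenic sites of a library share 1 identifier, so the class behaves as 1 gene in that step. Whether this limits the intergenic count in pools and in deep cells was not tested, and the shares of pools and single cells are therefore given side by side without a comparison.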

How the data were processed

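Single cells were sequenced with BATSeq, in which the oligo(dT) primer holds barcodes for the cell and the molecule and the 3′ ends are read. The authors aligned reads to GRCm38 with spike-in sequences. They discarded reads that did not align uniquely and reads whose end was followed by A-rich genome sequence. They collapsed molecular barcodes within a gene identifier and merged positions up to 12 nt apart. Counts of molecules and reads per site and cell were deposited, with a class and a distance to the closest known end. These counts were used as deposited. Per kept cell the depth was 1215 to 22017 genome molecules. In the files of the control cells and pools, the last 2 header names are exchanged, and were read by content. Sites were placed through their distances, with annotated ends 2 nt (plus strand) or 1 nt (minus strand) from the arithmetic value. A site was compared at 20 or more molecules in both populations together, a population without molecules was set at 3, and a site was called at a fold of 4. Named were the 15 most used sites and, per comparison and direction, up to 5 with the most extreme ratio, exact intervals that did not overlap and 1 direction in all 4 batch pairs. Sites on chromosome 18 were counted but not named. Sites at other copies of genes, such as Gm7285 and Zfp42-ps1, and those shared with Gm23723 and Snord104 were chosen after their values were seen. Intervals of shares are Clopper-Pearson, those of ratios conditional binomial. Python 3.11.15, scipy 1.17.1, pandas 2.3.3 and BLAST+ 2.17.0 were used, and the calls were tested on simulated data. Members, gene lists and rules were chosen with earlier results of these data known.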

Additional observations from a re-analysis of the deposited data

How the results depend on the processing

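No paired analysis was possible because the results come from no test and cells of different cultures share only numbers. Alternatives that remove sites before A-rich sequence, beyond the authors' own filter of reads, were not run, since no genome sequence was used here. The alternatives without mitochondrial positions and without 1-molecule sites were chosen after seeing the data. The order of the shares (ESC-2i, ESC-FCS, NSC) was 4.70, 5.47 and 6.94% in batch 1, 4.25, 6.10 and 5.39% in batch 2, 2.34, 2.78 and 2.73% in reads, 3.93, 5.22 and 5.55% without sites inside genes of the later annotation, 4.24, 5.25 and 5.51% without mitochondrial positions, and 2.55, 2.91 and 3.02% without sites of 1 molecule, a set that depends on the depth of each population. With all 48 cells ESC-FCS had 5.94%. Sites with at least 10 molecules numbered 288 in the kept cells, 143 in batch 1 and 125 in batch 2. The 100 most used sites held 20.6%, 23.3% with neighbours merged and 30.0% of reads.

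The share of all sites past the same limit is given after each count as the background. For NSC against ESC-2i (6 higher and 6 lower of 76), 3 of 34 sites were lower in batch 1 (background 12.0%), 1 of 36 higher (4.53%) and 3 lower (10.3%) in batch 2, 16 of 76 lower in reads (17.3%) and 3 of 78 higher with sites within 100 nt merged (6.21%). At 10 molecules 14 of 185 were higher (8.97%) and 10 lower (10.1%), and at 50 molecules 2 of 27 higher (4.19%) and 2 lower (11.1%). Of 76 sites, 17 were higher (17.3%) and 17 lower (25.8%) at a fold of 2, and 1 (2.80%) and 2 (5.18%) at a fold of 8. Without mitochondrial positions 2 of 66 were higher (6.20%).

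For ESC-FCS against ESC-2i (3 higher and 6 lower of 92), 2 of 44 were lower in batch 1 (background 3.31%), 0 of 43 higher (1.31%) and 3 lower (3.93%) in batch 2, 7 of 92 higher in reads (3.65%), 0 of 94 higher with sites merged (1.57%), 3 of 81 lower without sites inside genes (4.13%), and 0 of 75 higher (1.16%) and 2 lower (3.37%) without the top cell of each site. Per spike-in molecule 12 of 92 were higher (10.1%) and 3 lower (1.07%). At 10 molecules 16 of 239 were higher (2.77%) and 14 lower (5.98%), and at 50 molecules 1 of 30 was lower (2.09%). Of 92 sites, 11 were higher (8.62%) and 23 lower (15.0%) at a fold of 2, and 0 (0.425%) and 3 (1.12%) at a fold of 8. Without mitochondrial positions 0 of 81 were higher (1.57%). These are ratios without a test, so 0 means only that no ratio passed 4-fold. The log2 ratio of chr1:189981816 in ESC-FCS turned to 0.46 in reads and 0.29 per spike-in molecule, and that of chr2:165822882 to 0.043 per spike-in molecule. Of 477 recomputed ratios of named sites, 30 changed sign, and in 27 of these the main interval included a ratio of 1. The other 3 are those just given. Over all placed sites, 16.6% lay inside a gene and 4.01% at a pseudogene, and 28.9% of exonic sites had a hexamer. At 20 molecules 90.0, 70.0 and 40.7% of sites were found again in the control cells, ESC-FCS pool and ESC-2i pools. For a site at 0 in NSC the exact upper limit was 0.227 per 10000.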

Other observations

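A few sites were carried by single cells. Of the 8 sites with at least 10 molecules and most of them in 1 cell, 2 were seen in no other cell, chr5:129891592 with 14 molecules and chrX:103336581 with 11, both in an ESC-2i cell. The first lay 27542 nt past the end of Sumf2 and the second 5989 nt past that of Cdx4, a homeobox gene. The site at chr8:10024298 had 13 of 14 molecules in 1 ESC-FCS cell. These sites were picked after their values were seen.

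Some placed sites lay in exons of genes that were named for transcripts of pluripotent cells: a site in Platr10 had 13 molecules, one in Platr25 had 10 and one in Eprn had 10, each with AATAAA in the 40 bases upstream. These were also chosen after their values were seen.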
